A study of Mus musculus with 6 samples.

Results

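Krt6a, Krt6b, Krt16 and Krt17 are the keratins of wounded and hyperproliferating epidermis. They were taken by gene symbol from the deposited single-cell RNA-seq matrices of mouse back skin, where they make up 4 of 31053 counted genes, and all 4 were measured and passed the filter on low counts in keratinocytes and in each keratinocyte compartment described here. Keratins build the intermediate filaments of epithelial cells, in which 1 type II keratin pairs with 1 type I keratin. Krt6a and Krt6b are type II keratins, and Krt16 and Krt17 are type I keratins with which they pair. Resting epidermis between hair follicles is known to hold little of any of them, keratinocytes at a wound edge or in psoriatic plaques make them within hours to days, and Krt17, with some Krt6a, is also a keratin of the hair follicle and other skin appendages in undisturbed skin.

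The mice were female C57BL/6J animals of 8 to 10 weeks. In the IMQ group, 62.5 mg of a 5% imiquimod cream, which activates the innate receptor TLR7 and gives a psoriasis-like inflammation, was put on the shaved back daily for 4 days. In the IMQ+SHP099 group, mice under the same cream also received 10 mg/kg of SHP099, which inhibits the phosphatase SHP2 at an allosteric site, by gavage each day, and Sham stands for mice labelled normal, without cream or inhibitor. Each group had 2 libraries, each a pool of skin from several mice, so that the libraries are the replicates and single animals cannot be told apart. The comparisons ask what the cream did to the 4 keratins and whether the inhibitor changed it.

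All 4 genes lie on the minus strand of GRCm38. Krt6a (ENSMUSG00000058354, chr15:101689910-101694307, 9 exons) and Krt6b (ENSMUSG00000023041, chr15:101676023-101680287, 9 exons) are neighbours with 9622 bases and no other gene between them, and Krt16 (ENSMUSG00000053797, chr11:100246091-100248902, 8 exons) and Krt17 (ENSMUSG00000035557, chr11:100256217-100261029, 8 exons) are neighbours 7314 bases apart, also with no gene between. Annotated antisense and miRNA genes overlap Krt6a and Krt6b on the other strand, but none of them is among the counted genes. Krt6a and Krt6b are near copies, with 97.6% of 1662 aligned coding positions identical, whereas Krt16 and Krt17 were identical at 72.9%. The ends of both Krt6 coding sequences, read from the GENCODE vM21 transcripts 5′ to 3′, are printed because they show how few bases tell the 2 genes apart. Of the last 120 aligned positions, 6 differ, 3 of them where Krt6a has a gap, and capitals mark them.
Krt6a: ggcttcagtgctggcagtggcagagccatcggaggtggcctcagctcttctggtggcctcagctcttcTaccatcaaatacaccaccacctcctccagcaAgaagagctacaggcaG
Krt6b: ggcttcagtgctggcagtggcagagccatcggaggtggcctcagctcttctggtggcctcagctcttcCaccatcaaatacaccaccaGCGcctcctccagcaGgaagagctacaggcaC

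Of the 50-base windows of the Krt6a transcript, 49.5% were also found in transcripts of other genes, and for Krt6b the share was 50.1%. In the last 500 bases of the transcript, where the 3′ assay takes most of its reads, 0 of 451 windows were shared for either gene. A read from a window that both genes share, all of which lie further upstream, cannot be placed between Krt6a and Krt6b, so that the split between these 2 is less sure than their sum. For Krt16, 16.9% of the windows in the last 500 bases were shared, most of them with Gm11597, which is not among the counted genes. For Krt17 9.53% were shared, all with Krt14, and 6 of these windows were also shared with Krt16.

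Levels are given as CPM, that is, the UMIs (counted transcripts) of a gene per 1000000 UMIs of the same cells. They come from the 3′ end of each transcript and are not divided by length, so values are compared between libraries and cell groups and not between genes. Cells were clustered without the 4 keratins, and 14792 of 50850 kept cells fell into clusters that carried keratinocyte markers. Keratinocytes numbered 5932 and 1734 for Sham, 1084 and 654 for IMQ, and 5020 and 368 for IMQ+SHP099, which is 69.1, 21.1, 14.1, 6.35, 57.8 and 4.99% of their cells. IMQ+SHP099 replicate 1 stood apart from its partner, with the largest total of UMIs and the most cycling keratinocytes (50.2% against 26.1%). The median UMI count of a keratinocyte was 9662.5 and 15392.5 in Sham and between 23038 and 36538 in the treated libraries. Any pair of libraries shared 14 to 43 cell barcodes, at most 0.523% of the smaller library. In keratinocytes, the 10 fibroblast markers summed to 1.16 to 2.65% of their level in fibroblasts, none of them at 0, and the 10 endothelial markers to 0.0474 to 0.118% of their own level. The part of foreign RNA or mixed cells in the results was not tested beyond the levels outside keratinocytes given at the end.

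Keratinocytes were divided by their own keratins. The Krt79 gate holds cells with at least 10 Krt79 UMIs per 10000, Krt79 being a keratin of the upper hair follicle. Of the other cells, the basal gate holds those with more Krt5+Krt14 than Krt1+Krt10. The suprabasal gate holds those with at least as much Krt1+Krt10, which are keratins of differentiating layers. In both, the leading pair also had to reach 10 UMIs per 10000, and cells below this limit are in no gate. Basal cells made up 65.8 and 51.0% of Sham, 61.9 and 64.7% of IMQ, and 84.4 and 54.3% of IMQ+SHP099 keratinocytes. Suprabasal cells made up 30.6 and 25.4%, 19.0 and 10.1%, and 7.25 and 17.9%, and Krt79 cells 3.34 and 12.7%, 19.1 and 25.1%, and 8.27 and 27.7%. Sham replicate 2 also had 10.8% of cells in no gate, and 68.7% of the ungated Sham cells came from a cluster led by Krt71 and Krt25, keratins of the inner root sheath. Basal and suprabasal keratins lay within 2-fold of each other in 5.48 and 3.40% of Sham keratinocytes. For the IMQ libraries these shares were 15.0 and 14.5%, for the IMQ+SHP099 libraries 8.37 and 8.97%. The gates are thus ranges of a continuum and not separate types. Inside the suprabasal gate, mean Krt5+Krt14 was 1677 CPM for Sham, 10981.5 for IMQ, 9841 for IMQ+SHP099. Mean Krt1+Krt10 was 31036, 25596.5 and 28157 CPM in the same order.

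In all keratinocytes together, each of the 4 keratins was higher under IMQ than in Sham. The 2 Sham libraries lay below all 4 treated libraries for each of them. The share of all genes with this order was not counted, so the order is a description only. Krt6b had the steepest difference and Krt17 the shallowest. The calls of all 4 stand against 5.49% of 14069 genes called higher in the same comparison.

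Krt6b, a type II keratin with almost no presence in resting skin, was at 1.86 and 3.18 CPM in Sham, 4607 and 3729 under IMQ, and 3144 and 3836 under IMQ+SHP099. The Sham UMIs were 142 and 96 in number and came from 10 of 5932 and 7 of 1734 keratinocytes. In each Sham library 2 cells alone held 83.1 and 91.7% of them, and 92.3 and 92.7% lay in the suprabasal gate. The log2 difference of IMQ against Sham was 11.05 ± 0.63 (SE, adjusted p = 4.83e-05, edgeR quasi-likelihood test with Benjamini-Hochberg adjustment). Over the pooled UMIs, IMQ was 1920 times the Sham level, with an exact interval of 1691 to 2189 that covers counting error only.

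Krt6a, its near copy, was at 55.7 and 38.1 CPM in Sham, 4933 and 5086 under IMQ, and 3979 and 5277 under IMQ+SHP099. Unlike Krt6b it was present in many Sham cells, with UMIs in 785 and 174 of them. Its log2 difference of IMQ against Sham was 6.98 ± 0.61 (SE, adjusted p = 0.000314, edgeR).

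Krt16, the type I keratin most closely tied to hyperproliferative epidermis, was at 591 and 187 CPM in Sham, 9133 and 7754 under IMQ, and 6430 and 6942 under IMQ+SHP099. As a ratio, the Sham libraries lay further apart than the treated libraries of either group did. The log2 difference of IMQ against Sham was 4.61 ± 0.76 (SE, adjusted p = 0.00511, edgeR).

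Krt17, the type I keratin that resting follicles already hold, was at 993 and 1913 CPM in Sham, 4558 and 6000 under IMQ, and 5521 and 5172 under IMQ+SHP099. Its log2 difference of IMQ against Sham was 2.21 ± 0.46 (SE, adjusted p = 0.0154, edgeR). This call rested on both IMQ libraries, since the adjusted p was 0.0923 without IMQ replicate 1 and 0.134 without IMQ replicate 2 (edgeR), with log2 differences of 2.35 and 2.09. For the sum of the 4 genes, Sham held 1642 and 2141 CPM and the treated libraries 19073 to 23232.

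**Figure D1:**
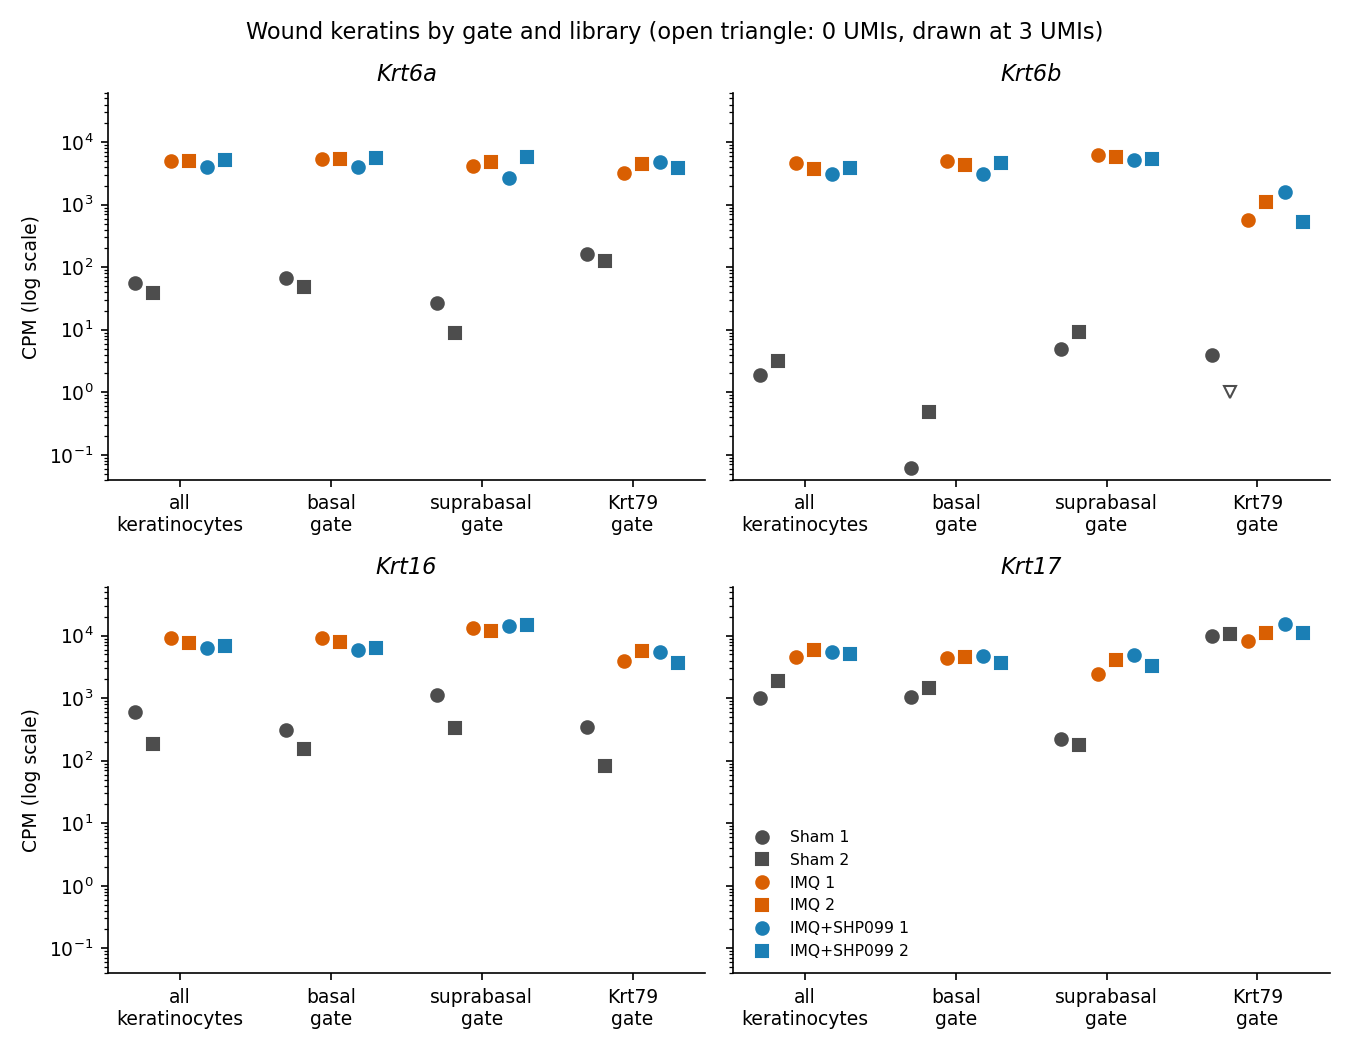
CPM of each of the 4 wound keratins (log axis) in every library, by keratinocyte gate. Each point is 1 library, coloured by group. Sham lies below the treated libraries in every panel except Krt17 in the Krt79 gate, where Sham stood at 9700 and 10662 CPM and the treated libraries at 8137 to 15542.

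The same comparison was then made within each gate. In the basal gate, which is set by keratin UMIs and not by position in the epidermis, all 4 keratins were again higher under IMQ. In this comparison 8.57% of 13349 genes were called higher. Krt6a rose from 67.1 and 47.6 CPM in Sham to 5457 and 5331 in IMQ, a log2 difference of 6.80 ± 0.63 (SE, adjusted p = 5.71e-05, edgeR). Krt16 rose from 310.6 and 155.6 to 9209 and 7855, a log2 difference of 5.40 ± 0.68 (SE, adjusted p = 0.000411, edgeR). Both treated libraries of each kind lay far above the Sham libraries, an order that was not counted over all genes.

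Krt6b could hardly be counted in basal Sham cells, with 3 UMIs in 1 library and 7 in the other, or 0.0626 and 0.487 CPM. Basal cells of the IMQ libraries held 5007 and 4301 CPM, and the ratio of pooled levels was 29671 with an exact counting interval of 16133 to 61874. The fitted log2 difference of 14.84 ± 0.93 (SE, adjusted p = 7.13e-06, edgeR) depends on how so few counts are treated. Krt17 went from 1043 and 1454 to 4350 and 4585 CPM in the basal gate, a log2 difference of 2.17 ± 0.46 (SE, adjusted p = 0.00914, edgeR). Without IMQ replicate 1 or 2 the adjusted p of this difference was 0.0819 or 0.0567 (edgeR).

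In the suprabasal gate all 4 rose as well, beside 8.18% of 11346 genes called higher, and each call held with any single library left out. Krt16 was already at 1124 and 329 CPM in suprabasal Sham cells and reached 13183 and 11902 in IMQ, with a log2 difference of 4.37 ± 0.63 (SE, adjusted p = 0.000772, edgeR). Krt6b went from 5.00 and 9.36 to 6271 and 5765 CPM, a log2 difference of 10.08 ± 0.55 (SE, adjusted p = 2.98e-06, edgeR). These were the highest gate levels of Krt6b and Krt16 in the IMQ libraries.

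Krt6a in suprabasal cells was at 26.4 and 8.83 CPM in Sham and at 4166 and 4824 in IMQ, a log2 difference of 8.24 ± 0.71 (SE, adjusted p = 3.17e-05, edgeR). Krt17, a keratin that Sham suprabasal cells held at only 223 and 180 CPM, stood at 2461 and 4137 in IMQ, a log2 difference of 4.34 ± 0.49 (SE, adjusted p = 0.000159, edgeR).

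The Krt79 gate gave a different picture for 1 of the 4 genes. Beside 2.58% of 10644 genes called higher, Krt6a, Krt6b and Krt16 rose and Krt17 did not pass the test. Krt17 was at 9700 and 10662 CPM in Krt79 cells of Sham skin, and at 8137 and 11054 under IMQ. The IMQ values lay on either side of the Sham values, and the log2 difference was 0.17 ± 0.43 (SE, 95% interval -0.81 to 1.14, adjusted p = 0.844, edgeR). Without the scaling for composition the same difference was -0.091.

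Krt6a in Krt79 cells went from 165.5 and 125.2 CPM in Sham to 3189 and 4469 in IMQ, a log2 difference of 4.93 ± 0.51 (SE, adjusted p = 0.00380, edgeR). Krt16 went from 340 and 81.5 to 3880 and 5593, a log2 difference of 4.61 ± 0.82 (SE, adjusted p = 0.0205, edgeR). The Krt16 call was lost without IMQ replicate 2 (0.0583), IMQ+SHP099 replicate 1 (0.0576) or IMQ+SHP099 replicate 2 (0.0605). Krt6b had 8 and 0 UMIs in Krt79 cells of Sham, against 573 and 1111 CPM in IMQ. Its pooled ratio was 526 with an exact counting interval of 267 to 1218, and the fitted log2 difference was 9.17 ± 1.22 (SE, adjusted p = 0.00699, edgeR).

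The clusters behind the gates differed between Sham and treated skin. Of Krt79 cells in Sham, 69.0% belonged to a cluster led by Cst6, Krt79 and Gata6 and 18.1% to the one led by Krt71 and Krt25, whereas 93.5% in IMQ and 85.3% in IMQ+SHP099 belonged to a cluster led by Krt79, Defb6 and Chil1. Of basal cells in Sham, 63.8% lay in a cluster led by Fcgbp and Krt15, and treated basal cells were spread over clusters led by Sprr2f and Stfa3, by Ube2c and Cdk1, by Cnfn and Sprr1b and by Krt79 and Chil1. Of suprabasal cells in Sham, 68.2% lay in a cluster led by Krt10 and Krt77, and 59.6% in IMQ and 63.7% in IMQ+SHP099 in the cluster led by Cnfn and Sprr1b.

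Whether the change from Sham to IMQ differed between gates was tested in 1 fit over the 3 gates of each library, with the library as a block. Because the gates held other clusters in treated skin, a response within cells cannot be told apart from a change of cells. Suprabasal-gate cells also held more Krt5+Krt14 under IMQ than in Sham, and the part of this in the differences was not tested. Krt17 rose more in suprabasal than in basal cells, by 2.09 ± 0.29 on the log2 scale (SE, adjusted p = 0.000824, edgeR), and less in Krt79 than in basal cells, by -1.997 ± 0.29 (SE, adjusted p = 0.00128, edgeR). For Krt6a the suprabasal response exceeded the basal response by 1.495 ± 0.40 (SE, adjusted p = 0.0363, edgeR), and the Krt79 response differed from the basal one by -1.90 ± 0.39 (SE, adjusted p = 0.0141, edgeR). Among 12767 genes, 2.62% rose more in suprabasal than in basal cells, 5.47% rose less or fell more, and 3.65% rose less or fell more in Krt79 than in basal cells.

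The Krt6a differences between gates depended on single libraries. The suprabasal difference had an adjusted p of 0.109 without Sham replicate 2, 0.130 without IMQ replicate 1 and 0.213 without IMQ replicate 2 (edgeR), and the Krt79 difference 0.239 without IMQ replicate 1 (edgeR), each with its sign kept. The Krt17 differences passed the test with any single library left out.

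Krt6b also differed between suprabasal and basal cells, by -4.80 ± 1.04 (SE, adjusted p = 0.0134, edgeR), which rests on the 3 and 7 basal Sham UMIs and was at an adjusted p of 0.0636 without IMQ replicate 1 (edgeR). For Krt16 the difference of -0.94 ± 0.37 (SE, adjusted p = 0.140, edgeR) between suprabasal and basal cells did not pass, and neither did those of Krt16 and Krt6b between Krt79 and basal cells (-0.49 ± 0.37 and -5.48 ± 1.98, SE, adjusted p = 0.569 and 0.152, edgeR). Without Sham replicate 1 the last value turned to 2.81.

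Mice given SHP099 beside the cream had levels of the 4 keratins that no test told apart from the cream alone. In all keratinocytes the log2 difference of IMQ+SHP099 against IMQ was -0.02 for Krt6a (95% interval -1.08 to 1.04), -0.17 for Krt6b (-1.09 to 0.76), -0.24 for Krt16 (-1.71 to 1.24) and 0.15 for Krt17 (-0.86 to 1.15), with an adjusted p of 1 for each (edgeR). The groups overlapped for Krt6a, Krt6b and Krt17, and both IMQ+SHP099 libraries were below both IMQ libraries for Krt16. The share of all genes that separate in this way was not counted, so this order is not read as a difference. These intervals are wide, and differences of -0.86 to 0.76 log2 units lie inside all 4 of them. No gene among the 14069 was called in this comparison (0.0%) by edgeR, 374 had an unadjusted p under 0.05, and DESeq2 called 12, none of them a wound keratin.

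The same held within the gates, where edgeR called 0.0% of genes in the basal, in the suprabasal and in the Krt79 gate. Unadjusted p-values under 0.05 numbered 463, 330 and 201 there, and DESeq2 called 30, 1 and 1 genes, again without a wound keratin. In basal cells Krt6a stood at 3994 and 5613 CPM under IMQ+SHP099, Krt6b at 3134 and 4591, Krt16 at 5969 and 6399 and Krt17 at 4695 and 3681. Krt16 had a log2 difference of -0.38 against IMQ, with an interval of -1.63 to 0.86.

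In suprabasal cells the IMQ+SHP099 libraries held 2707 and 5833 CPM of Krt6a, 5218 and 5297 of Krt6b, 14312 and 14669 of Krt16 and 4955 and 3257 of Krt17. Here the log2 difference against IMQ was 0.28 for Krt16 (interval -0.93 to 1.48) and -0.13 for Krt6b (interval -0.94 to 0.68). In Krt79 cells they held 4806 and 3868 of Krt6a, 1621 and 535 of Krt6b, 5546 and 3665 of Krt16 and 15542 and 11069 of Krt17. Krt17 had a log2 difference of 0.55 against IMQ (interval -0.43 to 1.53).

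No wound keratin differed between gates in its response to SHP099 (adjusted p of 1 for each, edgeR), where 0.0% of genes were called for suprabasal against basal and 0.0157% for Krt79 against basal cells. The largest of these differences was Krt16 in suprabasal against basal cells, at 0.62 with an interval of -0.17 to 1.41.

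Against Sham, the IMQ+SHP099 libraries gave calls for the same genes and gates as IMQ did, from the same Sham libraries. In all keratinocytes the log2 differences were 6.96 for Krt6a, 10.88 for Krt6b, 4.38 for Krt16 and 2.36 for Krt17, where 6.44% of genes were called higher. In the basal gate they were 6.70, 14.63, 5.02 and 2.19 in that order (9.63% of genes called higher), and in the suprabasal gate 8.18, 9.95, 4.64 and 4.76 (7.33% called higher). In the Krt79 gate they were 5.19, 9.63 and 4.65 for Krt6a, Krt6b and Krt16 (2.12% called higher), and Krt17 again did not pass, with 0.72 ± 0.43 (SE, 95% interval -0.26 to 1.70, adjusted p = 0.329, edgeR).

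Part of these calls depended on IMQ+SHP099 replicate 1. Without it, the adjusted p (edgeR) was 0.0895 for Krt16 and 0.106 for Krt17 in all keratinocytes, 0.116 for Krt17 in the basal gate, and 0.0776, 0.110 and 0.183 for Krt6a, Krt6b and Krt16 in the Krt79 gate. Without IMQ+SHP099 replicate 2, Krt6b and Krt16 in the Krt79 gate had 0.0519 and 0.0701.

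**Figure D2:**
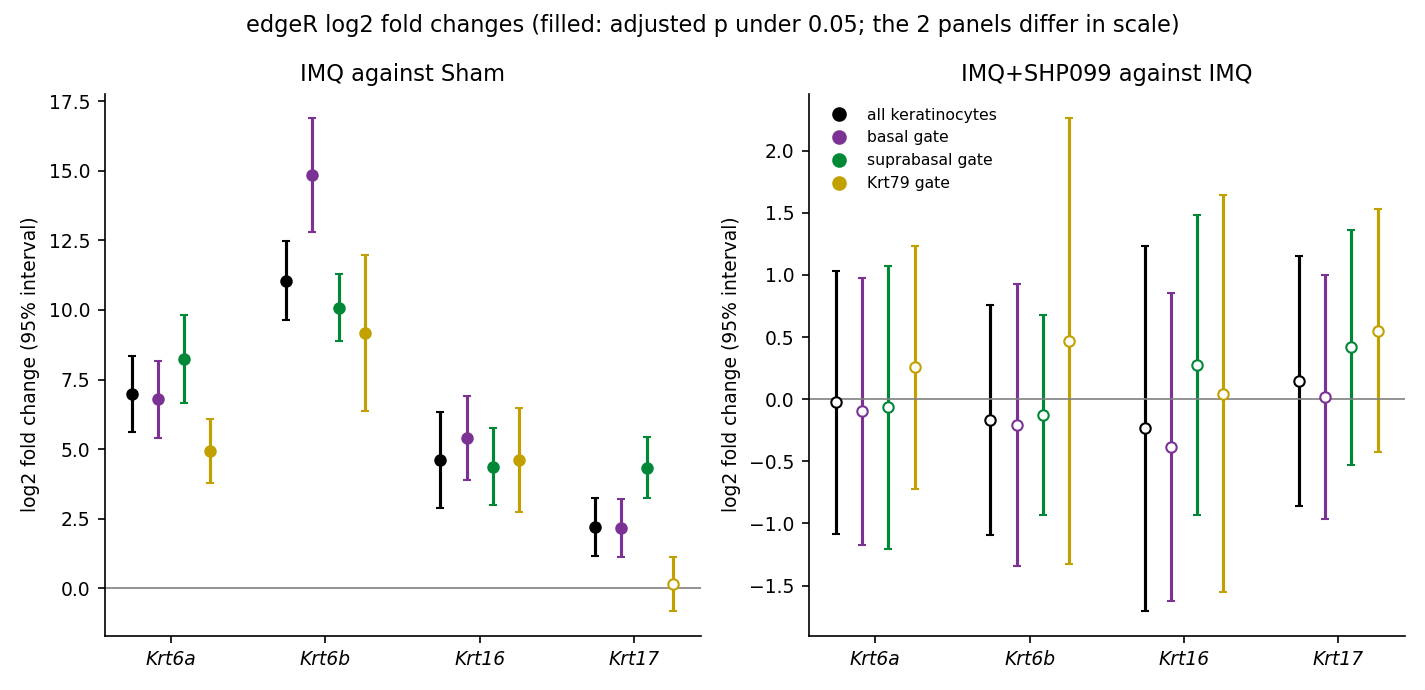
Log2 differences (points) of the 4 wound keratins in all keratinocytes and in the 3 gates, for IMQ against Sham (left) and IMQ+SHP099 against IMQ (right, on another scale), with 95% intervals from the edgeR fit and filled points at an adjusted p under 0.05. On the left each interval lies above 0 except that of Krt17 in the Krt79 gate (-0.81 to 1.14), and on the right all intervals include 0.

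The number of cells with a keratin was compared after thinning each cell to 2000 UMIs, since a deeper cell shows more genes, which kept 5715 and 1721 Sham, 1071 and 648 IMQ and 4951 and 349 IMQ+SHP099 keratinocytes and left out shallower ones. Krt6a was then detected in 5.51 and 3.54% of Sham keratinocytes, 90.2 and 79.8% under IMQ, and 90.2 and 85.4% under IMQ+SHP099. Krt6b was detected in 0.0525 and 0.0581%, 61.8 and 48.1%, and 55.3 and 47.9%. Krt16 was detected in 25.6 and 12.7%, 84.1 and 71.1%, and 79.7 and 77.9%, and Krt17 in 36.2 and 39.0%, 89.4 and 90.9%, and 95.4 and 89.4%. Without thinning, Krt6a was found in 13.2 and 10.0% of Sham cells and in 90.4 to 97.6% of treated cells. For Krt6b the shares were 0.169 and 0.404% against 62.1 to 80.1%, and for Krt16 44.6 and 26.7% against 86.9 to 96.7%. For Krt17 they were 57.5 and 61.8% against 95.9 to 99.3%.

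As a measure of background, fibroblasts, which do not make these keratins, showed Krt6a in 0.228 and 0.124% of Sham, 4.07 and 2.14% of IMQ, and 9.38 and 1.90% of IMQ+SHP099 cells at the same thinned depth, from 5045 to 9445 median UMIs per cell before thinning. Their shares for Krt6b were 0 and 0.0414%, 2.96 and 1.54%, and 6.60 and 1.64%, and the Sham shares of Krt6b in keratinocytes, which are 3 cells and 1 cell, are close to that level. The Sham shares of Krt16 and Krt17 in keratinocytes were above the fibroblast shares of 2.85 and 0.414% and of 3.31 and 4.05%.

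The mean share rose by 80.5 percentage points for Krt6a, 54.9 for Krt6b, 58.5 for Krt16 and 52.5 for Krt17 from Sham to IMQ. The libraries did not overlap, and how many of all genes separate in this way was not counted. With 2 libraries a group an exact two-sided permutation test cannot go below p = 0.333, which each of the 4 reached. From IMQ to IMQ+SHP099 the shares moved by 2.82, -3.42, 1.16 and 2.27 points in the same order, with exact permutation p of 0.667, 0.667, 1 and 0.667.

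The gates differed in which keratin nearly every cell held. In treated suprabasal cells, Krt16 was detected in 97.0 to 100% and Krt6b in 82.3 to 87.0% at the thinned depth. In Krt79 cells, Krt17 was detected in 92.7 and 89.4% of Sham cells and in 92.6 to 99.0% of treated cells, whereas Krt6b was found in 0 of 178 and 0 of 218 Sham cells, which allows shares of up to 1.69 and 1.38% of cells with a UMI at that depth, and in 24.4, 33.3, 40.3 and 16.7% of the treated libraries. In the basal gate Krt6b was found in 0 of 3759 and 0 of 880 thinned Sham cells, allowing up to 0.0798 and 0.341% with a UMI at that depth, and in 65.8, 48.3, 54.1 and 52.4% of treated cells. These limits cover counting error only and do not bound the share of cells that hold the transcript, since before thinning the Krt79 gate had 8 and 0 and the basal gate 3 and 7 Krt6b UMIs.

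The 4 keratins were also counted together in single cells. At the thinned depth 47.0 and 52.9% of Sham keratinocytes held none, and 39.9 and 39.4% held 1. All 4 together were found in 0 of 5715 and 1 of 1721 Sham cells, against 54.9 and 43.8% of IMQ, and 49.4 and 40.7% of IMQ+SHP099 cells. Of treated keratinocytes 22.7 to 28.9% held 3, 12.3 to 21.8% held 2, 4.99 to 16.05% held 1 and 0.505 to 2.16% held none.

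**Figure D3:**
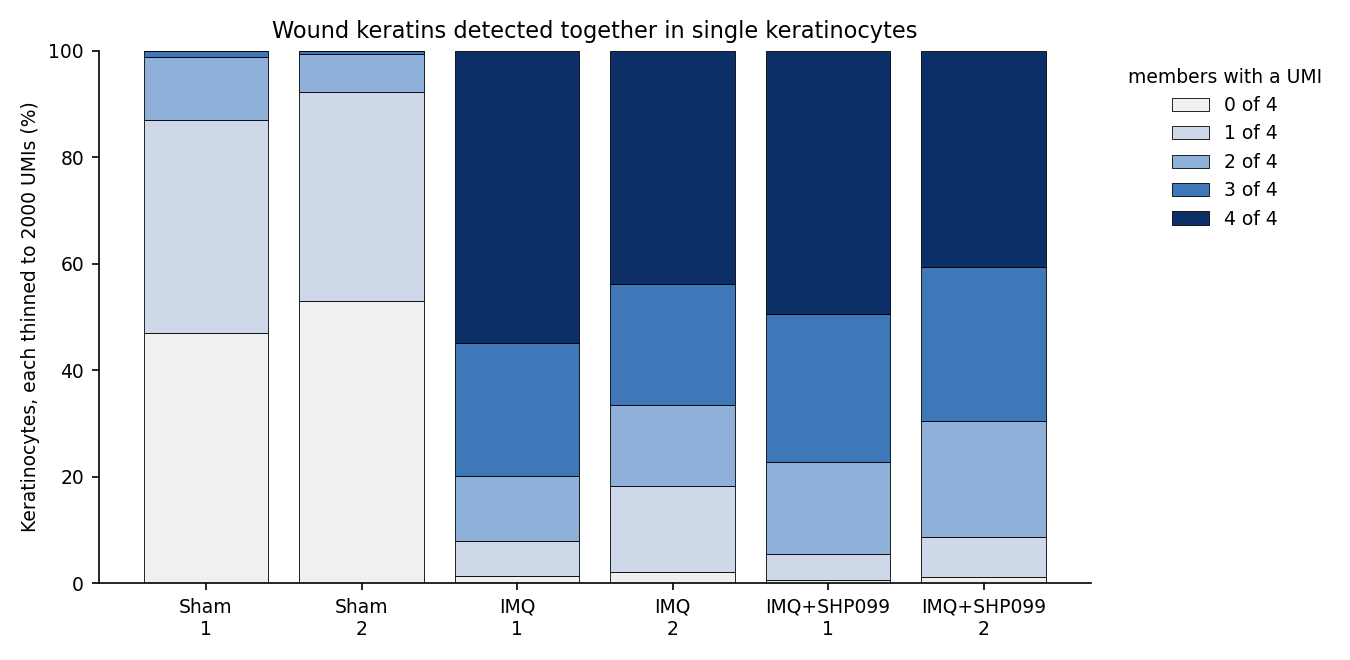
Percent of keratinocytes of each library, thinned to 2000 UMIs per cell, in which 0, 1, 2, 3 or 4 of the wound keratins were detected. Each stacked bar is 1 library, and shades stand for the number of genes with a UMI. The Sham bars are mostly the shades of 0 and 1, and those of the 4 treated libraries mostly the shades of 3 and 4.

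Within treated keratinocytes, Krt6b was found mostly in cells that also held Krt16 and Krt6a. Of cells with Krt6b, 94.7 to 97.4% also held Krt16 and 96.6 to 98.8% also held Krt6a. The reverse was less complete, as 54.7 to 67.7% of cells with Krt6a held Krt6b, and 59.6 to 71.6% of cells with Krt16. Among treated cells without Krt16, 4.28 to 14.3% held Krt6b, and among those without Krt6a, 5.34 to 19.2%. For Krt17 this contrast was smaller and turned in 1 library: Krt6b was found in 63.5, 49.6, 56.1 and 47.1% of cells with Krt17 and in 47.4, 33.9, 38.2 and 54.1% of cells without it. All of these cells share their library and differ in total RNA before thinning, and the values are a description.

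The balance of type II to type I wound keratin UMIs shifted between Sham and treated skin. Krt6a+Krt6b amounted to 0.0363 and 0.0197 of Krt16+Krt17 in Sham, to 0.697 and 0.641 under IMQ, and to 0.596 and 0.752 under IMQ+SHP099. In the Krt79 gate, where Krt17 was high from the start, the ratio was 0.0169 and 0.0117 in Sham and 0.299 to 0.335 in the treated libraries. Within type II, Krt6b made up 3.24 and 7.70% of UMIs in Sham and 42.1 to 48.3% in treated keratinocytes. Within type I, Krt16 made up 37.3 and 8.92% in Sham and 53.8 to 66.7% in treated keratinocytes. Set against the basal and suprabasal keratins Krt5, Krt14, Krt1 and Krt10, the wound keratins made up 6.61 and 8.71% of the UMIs of all 8 in Sham and 42.0 to 51.2% in treated keratinocytes.

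The UMIs were also spread over more cells. The 10% of keratinocytes with the most wound keratin UMIs held 63.7 and 70.8% of them in Sham and 34.9 to 37.2% in treated skin. These UMIs were counted without thinning, in treated cells that were deeper than Sham cells, and the part of depth was not tested.

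Cycling keratinocytes, taken as cells with at least 3 detected genes of the cell-cycle list, held less of the wound keratins in treated skin. The sum of the 4 was 13421 and 8998 CPM in cycling and 30047 and 29609 in other cells of IMQ, and 12080 and 8296 against 29083 and 29203 in IMQ+SHP099. In Sham, cycling and other cells held 1728 and 1629 CPM in 1 library and 1550 and 2318 in the other. Krt6b was at 939 to 1977 CPM in cycling cells and 5176 to 6435 in other cells of the 4 treated libraries. Krt17 was at 2491 to 4148 against 5621 to 7486. In each treated library cycling cells were below other cells for each of the 4 genes. Of cycling cells in treated skin 87.1 to 96.2% lay in the basal gate, against 39.7 to 72.6% of other cells, so that gate and cycle were not separated here. The cycle genes were counted without thinning, so deeper cells pass more easily. In the treated libraries cycling cells had 30871 to 42549 median UMIs, against 19561 to 32660 in other cells. The part of depth was not tested.

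Keratinocytes with at least 3 genes of the bulge and outer root sheath list, genes of the lower hair follicle and its stem cells, were taken from any gate. They made up 34.0 and 49.8% of Sham keratinocytes and were set beside basal-gate cells without the list. In Sham they held more Krt17 than those basal cells, at 1569 and 3107 against 379 and 467 CPM. In treated skin the order of the sum of the 4 was the other way. Cells of this list held 16271, 15836, 12001 and 10152 CPM, and basal cells without it 25991, 27796, 20071 and 25930. Krt17 itself was close in both, at 3714 to 4920 and at 4073 to 5072 CPM.

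The clusters showed where within treated keratinocytes the 4 keratins were highest. The cluster led by Cnfn and Sprr1b, genes of the cornified envelope, held Krt6b at 11505, 11614, 9630 and 10769 and Krt16 at 18527, 16949, 16636 and 15662 CPM in the 4 treated libraries. The cluster led by Ube2c and Cdk1, genes of dividing cells, held Krt6b at only 382, 389, 578 and 336 and Krt16 at 1569, 1206, 1623 and 603. Krt6a and Krt17 differed less between these clusters, at 6220 to 10531 and 4947 to 7813 in the first and at 1803 to 2780 and 2193 to 3819 in the second. Clusters were built from the expression of these cells, without the 4 keratins but with genes that go with them, so their levels are given without a test.

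One cluster, led by Lhx2 and Tbx1, which are expressed in the bulge of the hair follicle, was present in both Sham and treated skin. In treated skin its Krt17 lay within the range of the 4 other treated clusters of the plot by cluster, and its Krt6a, Krt6b and Krt16 lay under theirs. Krt17 stood there at 6570 and 2928 CPM in Sham, 4161 and 5051 in IMQ and 3811 in IMQ+SHP099 replicate 1, the other IMQ+SHP099 library having 10 cells. Krt6b had 0 UMIs in both Sham libraries and 9.37, 2.11 and 30.8 CPM in these treated libraries. Krt16 stood at 48.8 and 28.3 in Sham and at 74.9, 71.7 and 146 in treated cells, and Krt6a at 158 and 12.9 and at 386, 292 and 348. The treated Krt6b levels are below those outside keratinocytes in the same libraries, which were 34.6, 13.0 and 164 CPM. The treated Krt6a levels are above the outside levels of 71.5, 35.8 and 277 CPM. Outside keratinocytes, Krt16 stood at 0.345 to 5.30% of its keratinocyte level in the treated libraries. It was not compared library by library with this cluster, so its values here are not read as a rise. The part of free RNA in these values was not tested.

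**Figure D4:**
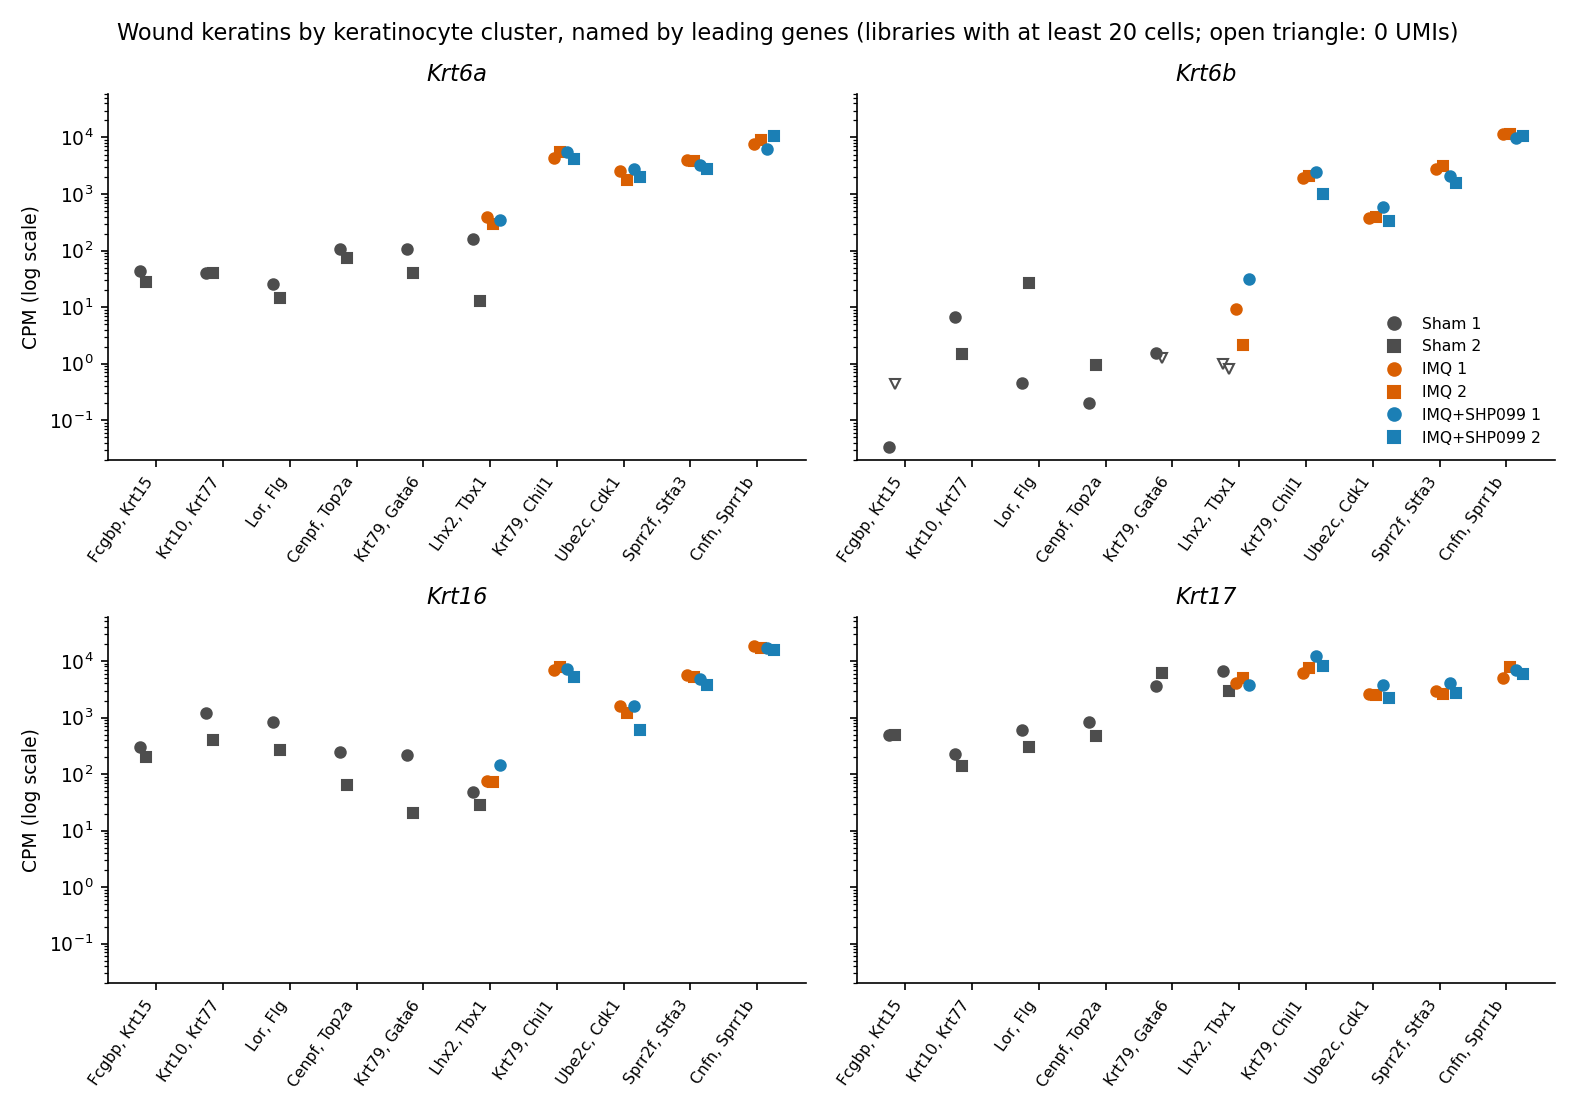
CPM (log axis) of the 4 wound keratins in the 10 keratinocyte clusters with the most cells, named by leading genes, for every library with at least 20 cells in the cluster. The cluster led by Cnfn and Sprr1b has the highest Krt6b and Krt16, at 9630 or more CPM, and the cluster led by Lhx2 and Tbx1 has Krt17 at 2928 or more with Krt6b at 30.8 or less.

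Outside keratinocytes, the cluster with sebocyte markers and the clusters without a name, the 4 keratins summed to 11.3 and 2.32% of the keratinocyte level in Sham, 1.18 and 0.60% under IMQ, and 6.25 and 0.36% under IMQ+SHP099. Krt5+Krt14, which no other class here should make, stood at 22.5 and 3.14%, 1.77 and 0.96%, and 10.0 and 0.56%, above the wound keratins in each library. The order of the libraries was the same for both, and it was also the order of their shares of keratinocytes. Without the clusters that had keratinocyte markers among their top 10 genes, the value of Sham replicate 1 was 4.39%.

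Fibroblasts held 2.92 and 1.06%, 0.36 and 0.213%, and 1.20 and 0.203% of the keratinocyte level. Lymphocytes of Sham replicate 1 were at 31.8%, with Krt5+Krt14 at 73.1%, and this class includes a small cluster led by Fcgbp, Krt15 and Cd3e. In IMQ+SHP099 replicate 1, mural cells were at 21.3% and myeloid cells at 19.4%, with Krt5+Krt14 at 30.7 and 33.7%.

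**Figure D5:**
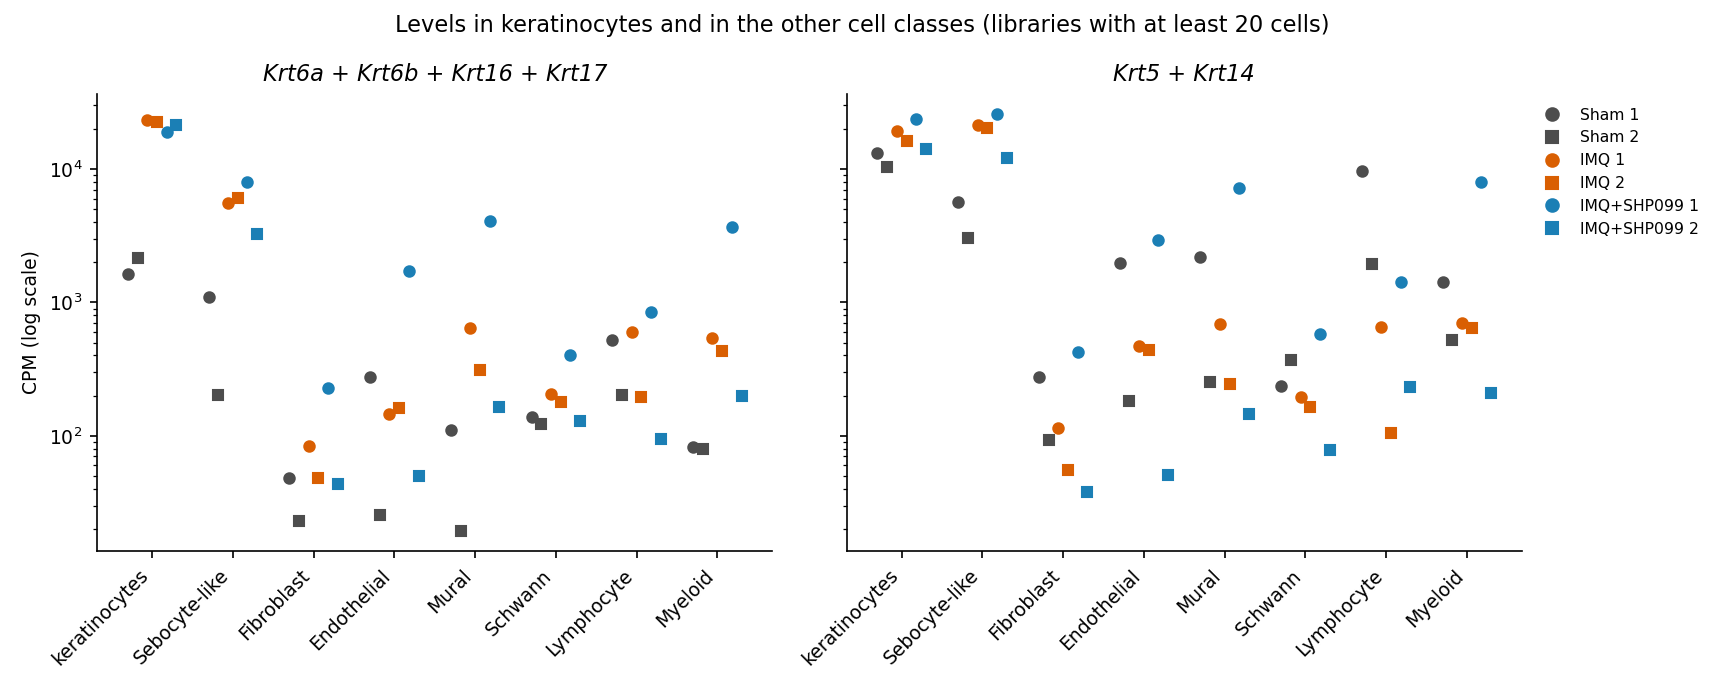
CPM (log axis) of the 4 wound keratins summed (left) and of Krt5+Krt14 (right) in keratinocytes and the other cell classes, 1 point for each library with at least 20 cells in the class. Fibroblasts lie between 22.8 and 229.7 CPM on the left, the sebocyte-like cluster between 202.9 and 7956, and among the remaining classes the highest are mural (4057) and myeloid cells (3699) of IMQ+SHP099 replicate 1.

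The other genes of the keratin system were read from 4 lists, in keratinocytes and for IMQ against Sham, where the median of all genes was -0.07 on the log2 scale, 5.49% of all genes were called higher and 7.28% lower. Of 23 other keratins tested out of 33, 0 rose and 13 fell, with a median of -3.41. Krt77, a keratin of the suprabasal layers, was at 4219 and 4433 CPM in Sham, 1.08 and 4.14 under IMQ, and 4.84 and 22.4 under IMQ+SHP099, a log2 difference of -10.47 ± 1.01 for IMQ (SE, adjusted p = 0.000512, edgeR). Krt71, the inner root sheath keratin, was high in Sham replicate 2 alone, at 1242 CPM against 0.525 in the other, and its difference of -12.96 ± 3.08 (SE, adjusted p = 0.0260, edgeR) rests on that library. Krt33a, a hair keratin, was at 0.420 and 5.67 in Sham and at 0 in both IMQ libraries. Of the keratins tested, none outside the 4 wound keratins passed as higher.

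Among 36 tested genes of 40 in the list of wound and activation genes, 22 rose and 1 fell, beside the same 5.49 and 7.28% of all genes, with a median of 1.75. This list, like the others, was chosen with earlier results of these data known, so the count is a description and not a test. S100a8 and S100a9, alarmins of activated keratinocytes that neutrophils also make, went from 1.75 and 1.03 to 17236 and 14700 and from 2.13 and 0.331 to 18960 and 14297 CPM. Their log2 differences were 13.70 ± 0.94 and 13.81 ± 1.29 (SE, adjusted p = 0.000120 and 0.000440, edgeR). Sprr2d, a cornified envelope gene of a family of near copies among which reads may be split, rose by 8.16 ± 1.54 (SE, adjusted p = 0.00996, edgeR). Lamb3, a chain of laminin 332 in the basement membrane, was the 1 that fell, with a log2 difference of -1.56 ± 0.39 (SE, adjusted p = 0.0334, edgeR).

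Of 25 regulators of keratin genes or of epidermal differentiation, 2 rose and 1 fell, shares near those of all genes (5.49 and 7.28%), with a median of 0.22. Grhl3, a factor of barrier formation and wound repair, went from 21.3 and 33.3 to 123 and 88.0 CPM (log2 difference 2.30 ± 0.38, SE, adjusted p = 0.00536, edgeR), and Ovol1 from 94.98 and 207 to 345 and 274 (1.42 ± 0.35, SE, adjusted p = 0.0309, edgeR). Nr3c1, the glucocorticoid receptor, went from 54.6 and 84.3 to 21.1 and 28.9, a log2 difference of -1.15 ± 0.26 (SE, adjusted p = 0.0218, edgeR). The remaining 22, with Nfe2l2, Stat3 and Fosl1 among them, did not pass.

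Of 20 desmosome, hemidesmosome and filament partners of keratins, 1 rose and 4 fell, beside 5.49 and 7.28% of all genes, with a median of -0.09. Dsc2, a desmosomal cadherin, rose from 2.17 and 4.01 to 32.1 and 16.1 CPM (log2 difference 3.35 ± 0.48, SE, adjusted p = 0.00262, edgeR). Dst, whose product ties keratins to hemidesmosomes, went from 356 and 474 to 59.8 and 61.0 (-2.46 ± 0.31, SE, adjusted p = 0.00145, edgeR). Dsg2 and Dsg1a, desmosomal cadherins, changed by -2.19 ± 0.27 and -1.90 ± 0.33 (SE, adjusted p = 0.00142 and 0.00714, edgeR). For IMQ+SHP099 against IMQ no gene of the 4 lists passed the test in edgeR, as no gene of the whole table did. For IMQ+SHP099 against Sham, where 6.44% of all genes were called higher and 7.04% lower, 0 other keratins rose and 11 fell, 22 wound and activation genes rose and 0 fell, 2 regulators rose and 2 fell, and 2 partners rose and 5 fell.

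The genes whose levels over the 18 gate sums were most like the mean of the 4 were sought among 5123 genes with at least 20 CPM on average, by Pearson's r of log2 values. They were S100a8 (r = 0.996), S100a9 (0.994), Rnase2b (0.969), Dnmt3l (0.969) and Serpinb3a (0.963). The 18 points are 3 gates of 6 libraries, share their libraries and fall into Sham and treated points, and r is given without a test. Among the 4 keratins themselves r was highest between Krt6b and Krt16 (0.972) and between Krt6a and Krt6b (0.913). It was lowest between Krt16 and Krt17 (0.308), which are neighbours on the chromosome, and between Krt6b and Krt17 (0.395).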

How the data were processed

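Skin cells of 6 libraries were profiled with the 10x Genomics 3′ assay, and the authors aligned and counted reads with Cell Ranger against mm10 (GRCm38) and deposited UMI counts per gene and cell barcode for 55201 barcodes. Following the filters of the study, the 50850 barcodes with fewer than 100000 UMIs, fewer than 6500 genes and a mitochondrial share below 10% were used. Total UMIs per library ran from 53913865 to 188283327, and all deposited columns were mapped to a library (0 left unused). Groups and replicate numbers come from the sample titles, the replicate is the library, and p-values measure the spread between libraries only. The members and gene lists were chosen with earlier results of these data known.

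Counts were scaled per cell, the 3000 most variable genes without the 4 keratins were clustered (scanpy 1.11.5, Leiden at resolution 0.8, igraph 0.11.9), and clusters were named from fixed marker lists, with S100a8 and S100a9 left out of the myeloid list because keratinocytes make them too. No doublet caller removed cells, and leaving out cells with a Scrublet score over 0.25 was an alternative. UMIs were summed per library and gate and tested with edgeR 4.0.16 (R 4.3.3; TMM, filterByExpr, quasi-likelihood test, all 6 libraries, group as the only term) with Benjamini-Hochberg adjustment over all genes and a threshold of 0.05. Differences between gates were tested in 1 fit with library as a block. The SE of a log2 difference was its size divided by the root of F, and intervals are at 95%. Shares used exact two-sided permutation tests over libraries, and ratios of pooled UMIs exact counting intervals. The code was tested on simulated data.

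The 4 keratins were named in every comparison, with the 3 genes of largest log2 difference in each direction from each list and the 5 genes most alike in pattern. Alternatives were DESeq2 1.42.0, no filter on low counts, no TMM, a replicate block, only the 2 groups compared, other gate limits (5 and 20 per 10000), stricter cell filters, keratinocytes taken cell by cell, the sebocyte-like cluster added, other thinning (1000 UMIs or none), a minimum of 3 UMIs, and each library left out. Adding the sebocyte-like cluster, dropping TMM and leaving out mixed clusters were chosen after the data were seen. RefSeq sequences of the 4 genes were not used here. Scripts ran in Python 3.11.15 with numpy 2.4.6, pandas 2.3.3, scipy 1.17.1 and matplotlib 3.10.9.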

Additional observations from a re-analysis of the deposited data

Results flagged for a closer look

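The difference in response to IMQ between gates was tested directly and passed for 5 of the 8 combinations of gene and gate pair. Among all 12767 genes, 2.62% rose more in suprabasal than in basal cells, and 5.47% rose less or fell more. In Krt79 against basal cells, 3.65% rose less or fell more. The calls of Krt6a and Krt6b depended on single libraries, as given above. The gates held other clusters in treated than in Sham skin, so a response within cells cannot be told apart from a change of cells. The part of the higher Krt5+Krt14 in suprabasal-gate cells under IMQ was not tested. Mean IMQ levels in suprabasal and basal cells were 3299 and 4468 CPM for Krt17 and 4495 and 5394 for Krt6a. The Sham means were 201 and 1248 for Krt17 and 17.6 and 57.3 for Krt6a. Krt17 responded more in suprabasal than in basal cells, by 2.09 on the log2 scale, and less in Krt79 than in basal cells, by -1.997. Krt6a responded more in suprabasal than in basal cells, by 1.495, and less in Krt79 than in basal cells, by -1.90. Krt6b responded less in suprabasal than in basal cells, by -4.80, a value set by the 3 and 7 UMIs of basal Sham cells.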

How the results depend on the processing

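In comparisons of groups, no alternative other than leaving out a library changed which wound keratins were called, and between gates 2 calls were gained without the filter on low counts. Of 552 log2 differences 537 kept their direction and their side of the threshold. The number of all genes called moved more. Without the filter on low counts it went from 1797 to 2840 for IMQ against Sham, from 0 to 117 for IMQ+SHP099 against IMQ and from 1896 to 3104 for IMQ+SHP099 against Sham in all keratinocytes. It also gave 148, 80 and 83 for IMQ+SHP099 against IMQ in the basal, suprabasal and Krt79 gates, 1635 and 1623 for IMQ and IMQ+SHP099 against Sham in the Krt79 gate (685 and 468 with the filter), 1691 and 1317 between gates for IMQ against Sham (1032 and 680 with it) and 106 and 192 for IMQ+SHP099 against IMQ. DESeq2 called 12, 30, 1 and 1 genes for IMQ+SHP099 against IMQ in all keratinocytes and the 3 gates, and 730 for IMQ+SHP099 against Sham in the Krt79 gate. That last count was 302 with only the 2 groups, 258 with keratinocytes taken cell by cell and 285 with the sebocyte-like cluster added. Keratinocytes taken cell by cell gave 414 for IMQ against Sham in the Krt79 gate and 4 for IMQ+SHP099 against IMQ in all keratinocytes, and a gate limit of 20 gave 6 genes for the response to SHP099 in Krt79 against basal cells. Without TMM the median of all genes for IMQ against Sham was -0.39, and 27.5% of calls were higher, against 43.0% with it. The same wound keratins were called.

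The replicate numbers of the labels do not pair libraries by any stated batch. The deviations of replicate 2 from replicate 1 correlated at 0.161 between Sham and IMQ, 0.234 between Sham and IMQ+SHP099 and 0.152 between IMQ and IMQ+SHP099 over 8844 genes. A replicate block gave 2704 and 2848 genes for IMQ and IMQ+SHP099 against Sham in all keratinocytes, and 2, 1 and 2 for IMQ+SHP099 against IMQ in all keratinocytes, the basal and the suprabasal gate, and changed no call of a wound keratin.

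Without leaving out a library, 13 log2 differences and 5 differences of shares changed sign. For IMQ+SHP099 against IMQ, Krt6a in all keratinocytes was 0.012 without the filter, 0.040 cell by cell and 0.020 with the sebocyte-like cluster. Krt17 in the basal gate was -0.0069 with the replicate block, -0.025 with only the 2 groups and -0.093 without TMM, and Krt16 in the Krt79 gate -0.15 with the block and -0.040 without TMM. Between suprabasal and basal cells Krt6b was 0.035 without the filter and 0.045 at a gate limit of 5, and Krt6a 0.035 without the filter and 0.0016 at a limit of 20. For IMQ against Sham, Krt17 in the Krt79 gate was -0.091 without TMM. Without the filter, Krt16 between suprabasal and basal cells (-0.93, adjusted p = 0.00188, edgeR) and Krt6b between Krt79 and basal cells (-5.43) passed the test. Shares for IMQ+SHP099 against IMQ turned to -0.409 points for Krt6a and -3.42 for Krt16 when thinned to 1000 UMIs, to -4.58 for Krt16 at a minimum of 3 UMIs, and without thinning to 0.774 for Krt6b and -0.700 for Krt17. The cause was not tested.

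Leaving out each library in turn moved counts of genes called for IMQ against Sham to between 649 and 1747 in all keratinocytes, 1100 and 2515 in the basal, 797 and 2165 in the suprabasal and 96 and 745 in the Krt79 gate. For IMQ+SHP099 against Sham these ranges were 351 to 1898, 721 to 2921, 986 to 1520 and 8 to 804, and for IMQ+SHP099 against IMQ 0 to 1, 0 to 31, 0 to 1 and 0 to 0. Between gates they were 382 to 949 and 199 to 583 for IMQ against Sham and 0 to 9 for IMQ+SHP099 against IMQ in Krt79 against basal cells. The wound keratins called ranged from 3 to 4 for IMQ against Sham and 2 to 4 for IMQ+SHP099 against Sham in all keratinocytes, 0 to 3 for IMQ+SHP099 against Sham in the Krt79 gate, and 1 to 3 and 1 to 2 between gates.

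For IMQ+SHP099 against IMQ, leaving out 1 library moved log2 differences to between -0.089 and 0.37 (Krt17), -0.36 and 0.078 (Krt6b) and -0.059 and 0.030 (Krt6a) in all keratinocytes. The ranges were -0.32 to 0.30, -0.395 to 0.00071 and -0.21 to 0.013 in the same order in the basal gate, -0.13 to 0.84 for Krt17 and -0.53 to 0.26 for Krt6a in the suprabasal gate, and -0.39 to 0.40 for Krt16, -0.68 to 1.11 for Krt6b and -0.0094 to 0.53 for Krt6a in the Krt79 gate. Between suprabasal and basal cells they were -0.19 to 0.39 for Krt6b and -0.27 to 0.29 for Krt6a, and between Krt79 and basal cells -0.077 to 0.87 for Krt16 and -0.55 to 1.46 for Krt6b. For IMQ against Sham, Krt17 in the Krt79 gate ranged from -0.060 to 0.39, and between Krt79 and basal cells Krt16 from -0.98 to 0.046 and Krt6b from -8.31 to 2.81. Shares ranged from -2.39 to 8.02 points for Krt6a, -10.3 to 3.41 for Krt6b, -5.33 to 7.66 for Krt16 and -0.727 to 5.27 for Krt17. Calls lost this way stand beside the results. A group left with 1 library is assumed to vary like the others. With 2 libraries a group, only large differences could pass.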

Other observations

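The 1219 cells of a cluster led by Akr1c18 and Scd1, with markers of sebocytes, the lipid-producing cells of the sebaceous gland, were kept apart from keratinocytes and held some of the wound keratins. Krt17 stood there at 1068 and 191 CPM in Sham, 2665 and 3123 under IMQ, and 4526 and 1827 under IMQ+SHP099. Krt6a went from 12.4 and 6.32 in Sham to 1709 and 1881 under IMQ, and to 2309 and 904 under IMQ+SHP099, and Krt16 from 15.9 and 5.17 to 1115 and 980 and to 929 and 478. Krt6b had 0 UMIs in both Sham libraries and stood at 94.6, 79.3, 193 and 46.1 in the treated libraries. The sum of the 4 was 66.8 and 9.47, 24.0 and 26.9, and 41.7 and 15.3% of the keratinocyte level of the same library, beside 42.6 and 29.4, 110 and 124, and 109 and 85.3% for Krt5+Krt14. The Sham values came from 53 and 154 cells. No test was run on this cluster.

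In the cluster led by Krt71 and Krt25, with 234 of its 237 cells in Sham replicate 2, Krt17 stood at 6400 CPM and was detected in 44.6% of cells thinned to 2000 UMIs. Krt6a stood at 79.2, Krt16 at 51.2, and Krt6b had 0 UMIs.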
